A study of Homo sapiens with 15 samples.

Results

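The 9 genes DDIT4, DDIT4L, SESN1, SESN2, SESN3, CASTOR1, DEPTOR, TSC2 and AKT1S1 encode proteins that restrain mTORC1, the kinase complex that couples nutrients and growth factors to cell growth. They were found in the count table by matching its Ensembl identifiers to these symbols, and make up 9 of its 60670 genes. Their RNA was measured in HT-1080, a human fibrosarcoma line, in 5 groups of 3 libraries. Cycling HT-1080 cells received the vehicle DMSO and carry the time label 6 h. The other 4 groups were senescent HT-1080 cells in which a dominant negative TRF2, a telomere-binding protein that uncaps telomeres in this form, had been expressed for 6 days. These senescent cells then received DMSO for 6 h, 1 uM GNF-7 for 6 h, DMSO for 24 h or 1 uM GNF-7 for 24 h. GNF-7 is a tyrosine kinase inhibitor that the study's title links to senescent cells and to GCN2, a kinase of the integrated stress response. All 5 groups share 1 cell line and a medium with tet-free serum, and no cycling cells treated with GNF-7 were analysed here. The labels number the libraries of a group as biological replicates, and p-values measure the spread between these libraries.

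As background, mTORC1 is switched on at the lysosome. Amino acids recruit it there through the Rag GTPases, which GATOR1 restrains and GATOR2 releases, and growth factors then activate it through RHEB, which the TSC complex holds inactive. The sestrins (SESN1, SESN2 and SESN3) and CASTOR1 hold back GATOR2 when leucine or arginine, respectively, is scarce, with SESN1 and SESN2 the better described leucine sensors. DDIT4 (also called REDD1) and DDIT4L (REDD2) restrain the pathway through the TSC complex, TSC2 is the subunit of that complex that inactivates RHEB, and DEPTOR and AKT1S1 (PRAS40) bind mTORC1 itself. Transcription of several of these genes is known to respond to stress, SESN1 and SESN2 to p53, SESN2 and DDIT4 to ATF4, SESN3 to FOXO factors, and DDIT4 also to hypoxia and glucocorticoids.

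Libraries held 25991007 to 32323393 counts, and 18563 genes passed the filter on low counts. TERF2, which encodes TRF2, rose from 58.2 ± 3.65 CPM (counts scaled by library size; SD, n = 3) in cycling cells to 287 ± 8.17 CPM in senescent cells in DMSO at 6 h. MKI67, a proliferation marker, was at 509 ± 24.3 and 149 ± 3.35 CPM in the same groups. Both were lower with GNF-7 than with DMSO. TERF2 was at 222 ± 8.60 CPM with GNF-7 at 6 h, and at 24 h at 220 ± 7.26 CPM in DMSO and 132 ± 5.38 CPM in GNF-7. MKI67 was at 114 ± 1.84 CPM with GNF-7 at 6 h, and at 24 h at 125 ± 4.72 CPM in DMSO and 39.1 ± 4.34 CPM in GNF-7. Mesenchymal markers (VIM, FN1, CD44, LGALS1, SPARC and CDH2) summed to 6384 to 11945 CPM in each library, and were lowest after GNF-7 for 24 h, while epithelial markers summed to at most 2.61, leukocyte markers to at most 0.624 and endothelial markers to at most 2.06 CPM. The mitochondrial share of counts was 4.32 ± 0.636% in cycling cells and 11.7 ± 0.640% in senescent cells in DMSO at 6 h. It was 14.1 ± 1.08% with GNF-7 at 6 h, 16.9 ± 1.80% with DMSO at 24 h and 23.3 ± 0.765% with GNF-7 at 24 h, and its part in the results was not tested. When mitochondrial genes were left out of the scaling, 40 of 40 member results (8 genes in 5 comparisons) kept their direction and their side of the threshold. In these bulk libraries, fewer cells expressing a gene and less of its RNA per cell cannot be told apart.

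The members did not move as a block. In senescent against cycling cells, SESN1, SESN2, SESN3, TSC2 and AKT1S1 were higher and DDIT4 was lower, and the low levels of CASTOR1 and DEPTOR also lay above those of cycling cells. With GNF-7, DDIT4 was 5.56-fold and SESN2 2.77-fold higher than in DMSO at 6 h, and 3.78-fold and 3.19-fold higher at 24 h. TSC2 was slightly higher with GNF-7 at both times (1.13-fold and 1.21-fold), while SESN1 and AKT1S1 stayed within 1.12-fold of their DMSO level. DDIT4L had no count in any library.

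Counts were tested with edgeR's quasi-likelihood test over all 15 libraries, with p-values adjusted by the Benjamini-Hochberg method over the 18563 genes, and genes with an adjusted p under 0.05 were called. In the senescence comparison 70.0% of all genes tested were called, 35.6% higher and 34.4% lower, beside 5 higher and 1 lower of the 6 members that passed the filter in cycling cells. For GNF-7 at 6 h the share was 39.3% of all genes (17.9% higher and 21.4% lower), beside 4 members higher and 1 lower of 8. For GNF-7 at 24 h it was 58.9% (29.3% higher and 29.7% lower), beside 3 members higher and 3 lower. The median log2 fold change of these 6 members was 0.59 in senescence, beside 0.062 over all genes. For the 8 members tested it was 0.32 beside 0.0073 for GNF-7 at 6 h, and 0.06 beside 0.038 at 24 h. With so large a share of all genes called, the number of members called is no result about them, and the sizes and directions of the single members are described instead. Libraries of the 2 groups compared did not overlap for 6 of the same 6 members in senescence (71.5% of all genes), 7 of 8 for GNF-7 at 6 h (47.7%) and 5 of 8 at 24 h (63.2%). CASTOR1 and DEPTOR reached the filter's minimum of 0.335 CPM in 2 of 3 cycling libraries and in all 12 senescent libraries, so they passed through the senescent groups, and their differences from cycling cells are given as a description, with no test. The senescence and GNF-7 6 h comparisons share the 3 libraries of senescent cells in DMSO at 6 h, and values from both are set side by side only.

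**Figure D1:**
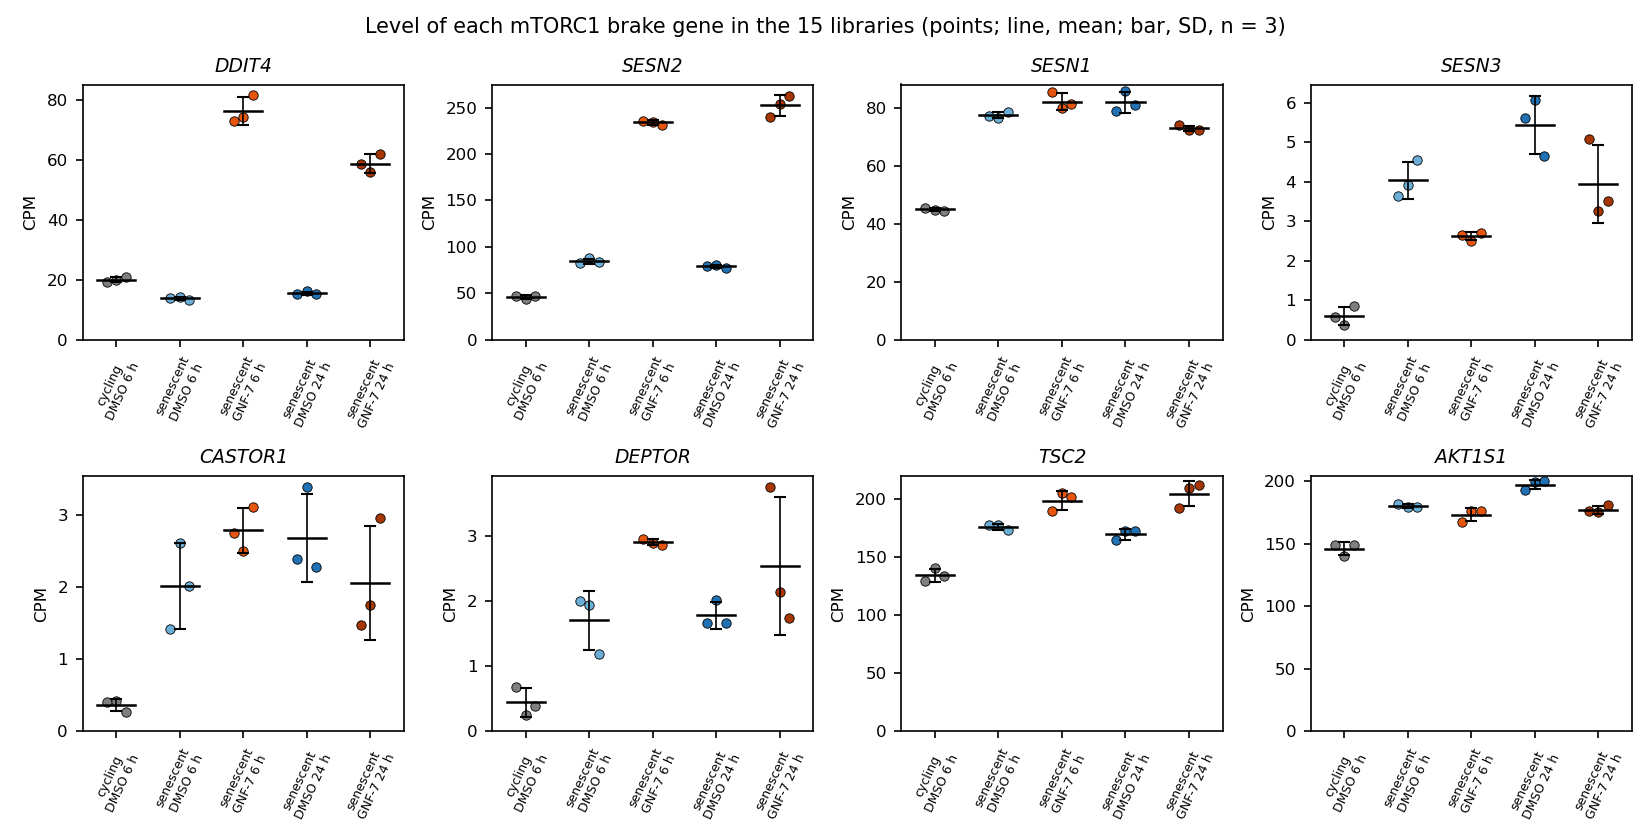
Level of each of the 8 detected members in CPM (vertical axis, starting at 0) in the 15 libraries, grouped on the horizontal axis by cell state, agent and time. Each point is a library, the line is the mean and the bar the SD (n = 3). DDIT4 and SESN2 are high in both GNF-7 groups, SESN1 separates cycling from senescent cells, and SESN3, CASTOR1 and DEPTOR lie below 1 CPM in cycling cells.

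DDIT4 and SESN2 were the members that rose at least 2-fold after GNF-7, and the stretch before each gene's start is shown because both moved together there. The windows come from RefSeq (GRCh38.p14), which gave a window of 300 bases (250 before the start and 50 after) for 7 of the 9 members. Capitals mark ACGTG and GCGTG, cores of the hypoxia response element, and CCAAT, read here on the opposite strand as ATTGG. The TSC2 stretch is shown for its TGATGNAA match, in capitals there.

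DDIT4, chr10:72273674-72273919, plus strand: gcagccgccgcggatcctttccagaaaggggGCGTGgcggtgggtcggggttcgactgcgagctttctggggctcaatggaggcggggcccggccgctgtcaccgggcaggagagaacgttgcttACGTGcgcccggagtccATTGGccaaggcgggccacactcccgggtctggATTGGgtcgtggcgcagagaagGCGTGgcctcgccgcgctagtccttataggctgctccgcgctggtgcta

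SESN2, chr1:28259268-28259517, plus strand: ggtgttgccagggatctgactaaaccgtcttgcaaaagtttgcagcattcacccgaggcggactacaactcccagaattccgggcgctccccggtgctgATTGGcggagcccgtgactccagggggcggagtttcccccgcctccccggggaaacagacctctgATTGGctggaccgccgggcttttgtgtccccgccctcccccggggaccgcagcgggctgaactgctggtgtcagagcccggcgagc

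TSC2, chr16:2047864-2047893, plus strand: gccccgtcacgTGATGCAAggatcgccggc

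Every window was searched on both strands for TGATGNAA (the C/EBP-ATF response element), for the hypoxia cores ACGTG (as above) with its variant GCGTG, and for the forkhead box O site GTAAACA. The search for CCAAT was added after the sequences were seen. In the DDIT4 window GCGTG began at positions -219, -53 and 25 from the start, ACGTG at -125, and CCAAT on the other strand at -108 and -75. The SESN2 window held CCAAT at -151 and -86 on the other strand and none of the other motifs. Both windows thus carry a pair of CCAAT letters, as did 10.8% of all 35116 windows of that length, and 34.6% held at least 1. CCAAT was not limited to these 2 genes. It was also found at -90 and -75 in separate SESN1 windows and at -191 in the CASTOR1 window. GCGTG was at -201, -167 and -106 in the CASTOR1 window and at -82 in a SESN1 window. Neither SESN1 nor CASTOR1 was called with GNF-7 at 6 h in the main fit. Neither held TGATGNAA, which 3.62% of all windows contained. Among the members' 10 windows that motif was found in 1 of the 2 TSC2 windows, at -110 (the stretch printed above), where it overlaps ACGTG on both strands by its first bases. ACGTG occurred in 21.4%, GCGTG in 36.5% and GTAAACA in 3.42% of all windows. GTAAACA was in none of the members' windows, including that of SESN3. These are matches of letters within 300 bases and were not tested for binding.

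DDIT4 (ENSG00000168209, GRCh38 chromosome 10, 72273920 to 72276036, plus strand) is the stress-induced protein that restrains mTORC1 through the TSC complex. Cycling libraries held 19.3, 20.0 and 20.9 CPM, from 480, 582 and 639 counts. Senescent libraries in DMSO at 6 h held 14.0, 14.1 and 13.2 CPM, and those in GNF-7 at 6 h 73.2, 74.5 and 81.9 CPM. At 24 h the DMSO libraries held 15.4, 16.1 and 15.1 CPM and the GNF-7 libraries 58.8, 55.9 and 62.0 CPM. DDIT4 was thus lowest in senescent cells in DMSO, somewhat higher in cycling cells and far higher in both GNF-7 groups, with no overlap between the groups of any comparison. In senescence it fell by 0.55 on the log2 scale (SE 0.071, 95% interval -0.69 to -0.40, edgeR adjusted p 5.29e-10). With GNF-7 at 6 h it rose by 2.48 (SE 0.064, interval 2.35 to 2.60, edgeR adjusted p 6.41e-41), the 99th largest positive log2 fold change of 18563 genes. At 24 h the rise was 1.92 (SE 0.064, interval 1.79 to 2.05, edgeR adjusted p 1.92e-35), the 567th largest. The interaction, which tests the 24 h effect against the 6 h effect, was -0.55 (SE 0.091, edgeR adjusted p 1.33e-06), so the rise was smaller at 24 h. In the order of its group levels, the 1 pair of neighbours not called was senescent cells in DMSO at 24 h and at 6 h (0.18, interval 0.031 to 0.32, edgeR adjusted p 0.084). In full the order was GNF-7 6 h, GNF-7 24 h, cycling, DMSO 24 h and DMSO 6 h. The antisense gene DDIT4-AS1 overlaps 41.2% of the exon bases of DDIT4, and no library held more than 5 of its counts.

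DDIT4L (ENSG00000145358, chromosome 4, 100185870 to 100190782, minus strand), the paralogue of DDIT4, had 0 counts in all 15 libraries. A count of 0 allows up to 3 counts, which is 0.0928 to 0.115 CPM per library and covers counting error only. It did not pass the filter and entered no test.

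SESN2 (ENSG00000130766, chromosome 1, 28259527 to 28282491, plus strand) overlaps no other annotated gene. Cycling libraries held 47.0, 43.3 and 47.2 CPM, and senescent libraries in DMSO 82.6, 87.5 and 83.2 CPM at 6 h and 79.3, 80.1 and 77.5 CPM at 24 h. GNF-7 libraries held 236, 235 and 231 CPM at 6 h, from 7269, 6843 and 7270 counts. At 24 h they held 240, 254 and 263 CPM. The levels formed 3 tiers without overlap, with cycling cells lowest, both DMSO groups of senescent cells above them and both GNF-7 groups highest. In senescence the log2 fold change was 0.88 (SE 0.045, interval 0.79 to 0.97, edgeR adjusted p 1.98e-26). GNF-7 added 1.47 at 6 h (SE 0.041, interval 1.39 to 1.55, edgeR adjusted p 5.55e-39), and 1.67 at 24 h (SE 0.042, interval 1.59 to 1.76, edgeR adjusted p 3.80e-42). These were the 445th and 819th largest positive values of 18563 genes. The interaction was 0.20 (SE 0.058, edgeR adjusted p 0.00432), the opposite sign to that of DDIT4. Rises of at least 2-fold among called genes made up 4.16% of all genes at 6 h and 10.3% at 24 h, and of the members these were DDIT4 and SESN2 at both times.

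SESN1 (ENSG00000080546, chromosome 6, 108986437 to 109094819, minus strand), the sestrin known as a p53 target, followed the cell state. Cycling libraries held 45.7, 44.8 and 44.6 CPM, and senescent libraries in DMSO at 6 h 77.5, 76.6 and 78.7 CPM. GNF-7 libraries at 6 h held 85.6, 80.0 and 81.5 CPM. At 24 h the DMSO libraries held 79.1, 86.2 and 81.1 CPM and the GNF-7 libraries 74.2, 72.6 and 72.4 CPM. All 12 senescent libraries lay above all 3 cycling libraries. Senescent minus cycling, the log2 fold change was 0.79 (SE 0.047, interval 0.69 to 0.88, edgeR adjusted p 6.15e-23). For GNF-7 at 6 h it was 0.086 (interval -0.0036 to 0.18, edgeR adjusted p 0.125), which was not called. At 24 h SESN1 fell by 0.17 (SE 0.045, edgeR adjusted p 0.00108), and the interaction was -0.25 (SE 0.064, edgeR adjusted p 0.00116). The filter at 5 CPM, which kept 11234 genes and shifted the members kept by 0.053 at 6 h and 0.10 at 24 h, changed both outcomes, while RLE size factors, total counts and leaving out mitochondrial genes changed neither. With that filter SESN1 was called higher at 6 h (0.139, edgeR adjusted p 0.00629) and was not called at 24 h (-0.068, edgeR adjusted p 0.158).

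SESN3 (ENSG00000149212, chromosome 11, 95165513 to 95232541, minus strand), the sestrin linked to FOXO factors, was scarce. Cycling libraries held 14, 11 and 26 counts (0.563, 0.379 and 0.849 CPM), and senescent libraries in DMSO 110, 124 and 131 counts (3.64, 3.92 and 4.54 CPM) at 6 h. GNF-7 libraries at 6 h held 2.66, 2.50 and 2.70 CPM. At 24 h the DMSO libraries held 5.61, 6.07 and 4.64 CPM, and the GNF-7 libraries 5.08, 3.25 and 3.52 CPM. SESN3 was higher in each senescent library than in any cycling one, and GNF-7 libraries lay below their DMSO libraries at 6 h, while 1 GNF-7 library overlapped the DMSO range at 24 h. For senescence the log2 fold change was 2.73 (SE 0.241, interval 2.25 to 3.22, edgeR adjusted p 9.13e-16). With GNF-7 SESN3 fell by 0.62 at 6 h (SE 0.188, edgeR adjusted p 0.0061) and by 0.47 at 24 h (SE 0.176, edgeR adjusted p 0.0196). The call at 24 h was lost without DMSO 24 h replicate 1 (-0.448) or 2 (-0.388) and without GNF-7 24 h replicate 2 (-0.345) or 3 (-0.393), with edgeR adjusted p up to 0.127. SESN3 was thus the sestrin with the largest difference between cell states, and it moved opposite to SESN2 under GNF-7.

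Levels of the sestrins were compared with each other per kilobase of the principal transcript. SESN1 and SESN2 stood at similar levels in cycling cells, 12.8 and 13.3 CPM per kb, and SESN3 at 0.0624 CPM per kb. Summed over the 3 genes, the level was 26.2 ± 0.705 CPM per kb (SD, n = 3) in cycling cells, 47.0 ± 0.592 in senescent cells in DMSO at 6 h and 46.9 ± 1.33 at 24 h. With GNF-7 it was 91.5 ± 1.27 at 6 h and 94.2 ± 3.03 at 24 h, so the sum stood at 3 levels that did not overlap. The share of SESN2 in this sum was 50.7 ± 1.11% in cycling cells, 52.0 ± 1.08% in senescent cells in DMSO at 6 h and 48.8 ± 0.953% at 24 h. It was 74.0 ± 0.602% with GNF-7 at 6 h and 77.4 ± 1.13% at 24 h. SESN3 made up at most 1.31% in any library. With the length of all annotated exons in place of the principal transcript the share of SESN2 was 60.0% in cycling cells and 80.6% and 83.3% in the GNF-7 groups. The share thus depended on the length used, while the senescent and cycling DMSO groups stayed close to each other and below both GNF-7 groups.

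**Figure D2:**
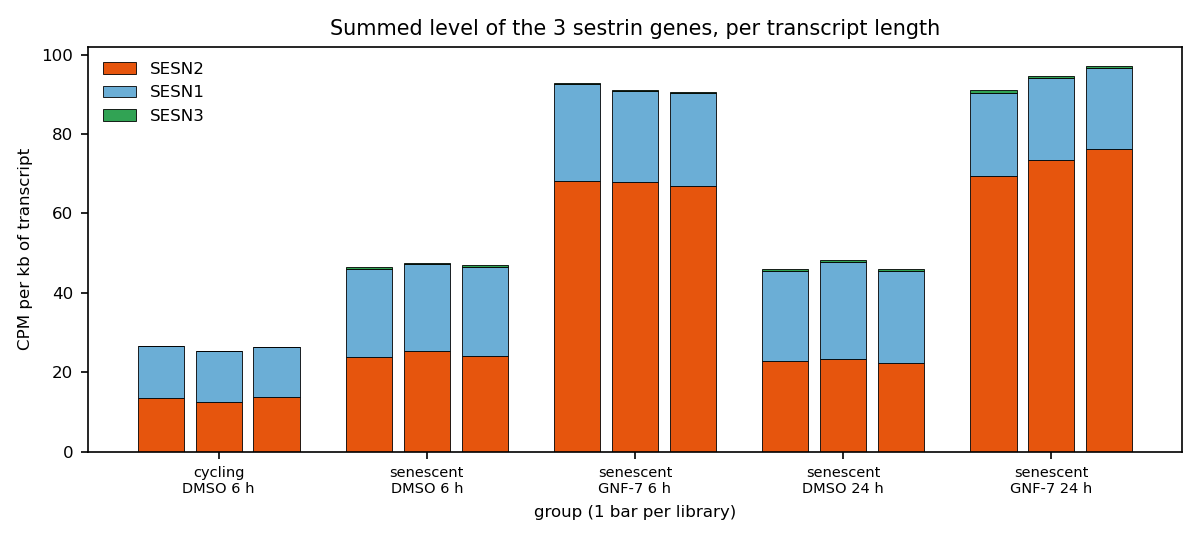
Stacked bars of the SESN1, SESN2 and SESN3 levels in CPM per kb of principal transcript (vertical axis from 0), 1 bar per library, grouped on the horizontal axis. The summed level runs from 25.4 to 26.7 in cycling libraries and from 90.5 to 97.1 in GNF-7 libraries, where the SESN2 section is the larger one.

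CASTOR1 (ENSG00000239282, chromosome 22, 30285117 to 30289627, minus strand), the arginine sensor, was near the detection limit in cycling cells. Cycling libraries held 10, 12 and 8 counts (0.402, 0.413 and 0.261 CPM), and senescent libraries in DMSO at 6 h 43, 83 and 58 counts (1.42, 2.62 and 2.01 CPM). GNF-7 libraries at 6 h held 2.76, 2.50 and 3.12 CPM. At 24 h the DMSO libraries held 2.39, 3.39 and 2.28 CPM and the GNF-7 libraries 1.47, 1.75 and 2.96 CPM. All 4 senescent groups overlapped at least 1 other senescent group, and all lay above cycling cells. The fitted log2 difference from cycling cells was 2.49, a description since CASTOR1 passed the filter through the senescent groups. GNF-7 gave 0.47 at 6 h (interval -0.0081 to 0.94, edgeR adjusted p 0.115) and -0.38 at 24 h (interval -0.86 to 0.093, edgeR adjusted p 0.164), neither of them called. Without DMSO 6 h replicate 2 the 6 h value was called (0.701, edgeR adjusted p 0.0361), and without GNF-7 24 h replicate 3 the 24 h value was (-0.738, edgeR adjusted p 0.0165). The interaction was -0.85 (SE 0.336, edgeR adjusted p 0.0467). It was not called with total counts (edgeR adjusted p 0.0517), without a filter (0.0603), with DESeq2 (0.0673) or in 7 of the 15 fits that each left out 1 library. Those 7 left out senescent DMSO 6 h replicate 1 or 3, GNF-7 6 h replicate 1 or 3, DMSO 24 h replicate 2, or GNF-7 24 h replicate 1 or 2 (-0.862 to -0.653, edgeR adjusted p 0.0622 to 0.176). The readthrough gene AC004997.1 on the same strand overlaps 46% of the exon bases of CASTOR1 and held 0 to 7 counts per library, so the value of CASTOR1 is uncertain. CASTOR2, its paralogue, was at 5.22 ± 0.0782 CPM in cycling cells and 9.50 ± 1.05 CPM in senescent cells in DMSO at 6 h (log2 fold change 0.86, edgeR adjusted p 3.11e-08). With GNF-7 at 6 h it fell by 0.43 (edgeR adjusted p 0.00385), to 7.05 ± 0.448 CPM.

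DEPTOR (ENSG00000155792, chromosome 8, 119873717 to 120050913, plus strand), which binds mTOR in both of its complexes, was also scarce. Cycling libraries held 17, 7 and 12 counts (0.684, 0.241 and 0.392 CPM), and senescent libraries in DMSO at 6 h 60, 61 and 34 counts (1.99, 1.93 and 1.18 CPM). GNF-7 libraries at 6 h held 2.95, 2.88 and 2.86 CPM. At 24 h the DMSO libraries held 1.66, 2.01 and 1.66 CPM and the GNF-7 libraries 3.74, 2.14 and 1.73 CPM. DEPTOR was above the cycling range in each senescent library, and the GNF-7 and DMSO libraries separated at 6 h and overlapped at 24 h. The fitted log2 difference from cycling cells was 1.98, given as a description for the same reason as for CASTOR1. GNF-7 gave 0.77 at 6 h (SE 0.248, interval 0.27 to 1.26, edgeR adjusted p 0.0104), a call that was lost without senescent DMSO 6 h replicate 3 (0.563, edgeR adjusted p 0.1). At 24 h it gave 0.51 (interval 0.0067 to 1.02, edgeR adjusted p 0.0759), which was not called. Its 24 h value rested on single libraries, with 0.120 (edgeR adjusted p 0.734) when GNF-7 replicate 1 was left out and 0.722 (edgeR adjusted p 0.0184, a call) when GNF-7 replicate 3 was. The interaction was -0.25 (interval -0.96 to 0.46, edgeR adjusted p 0.654), so a difference between the times was not shown.

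TSC2 (ENSG00000103197, chromosome 16, 2047465 to 2089487, plus strand), which inactivates RHEB, was abundant in all groups and changed little. Cycling libraries held 129, 140 and 133 CPM, and senescent libraries in DMSO 177, 177 and 173 CPM at 6 h and 164, 172 and 172 CPM at 24 h. GNF-7 libraries held 189, 205 and 201 CPM at 6 h and 192, 209 and 212 CPM at 24 h. The groups did not overlap within any comparison with DMSO. TSC2 had a log2 fold change of 0.39 in senescence (SE 0.041, edgeR adjusted p 6.17e-13), 0.18 for GNF-7 at 6 h (SE 0.040, edgeR adjusted p 2.61e-04) and 0.27 at 24 h (SE 0.040, edgeR adjusted p 2.51e-08). The interaction was 0.10 (interval -0.015 to 0.21, edgeR adjusted p 0.199) and was not called. TSC2 overlaps NTHL1 and PKD1 on the other strand over part of its exons, and whether counting used strand is not given in the sources used here.

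AKT1S1 (ENSG00000204673, chromosome 19, 49869033 to 49878459, minus strand), an mTORC1 subunit that blocks substrate binding until it is phosphorylated, stayed within 1.24-fold in the senescence and GNF-7 comparisons. Cycling libraries held 149, 140 and 149 CPM, and senescent libraries in DMSO 182, 179 and 179 CPM at 6 h and 193, 199 and 200 CPM at 24 h. GNF-7 libraries held 167, 176 and 176 CPM at 6 h and 176, 175 and 181 CPM at 24 h. The log2 fold change was 0.31 in senescence (SE 0.038, edgeR adjusted p 1.34e-10) and -0.059 for GNF-7 at 6 h (interval -0.13 to 0.016, edgeR adjusted p 0.219), which was not called. At 24 h AKT1S1 fell by 0.15 (SE 0.038, edgeR adjusted p 3.59e-04), which was not called with the filter at 5 CPM (-0.053, edgeR adjusted p 0.189). Other annotated genes overlap 8.75% of the exon bases of AKT1S1, so its value is uncertain to that extent.

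**Figure D3:**
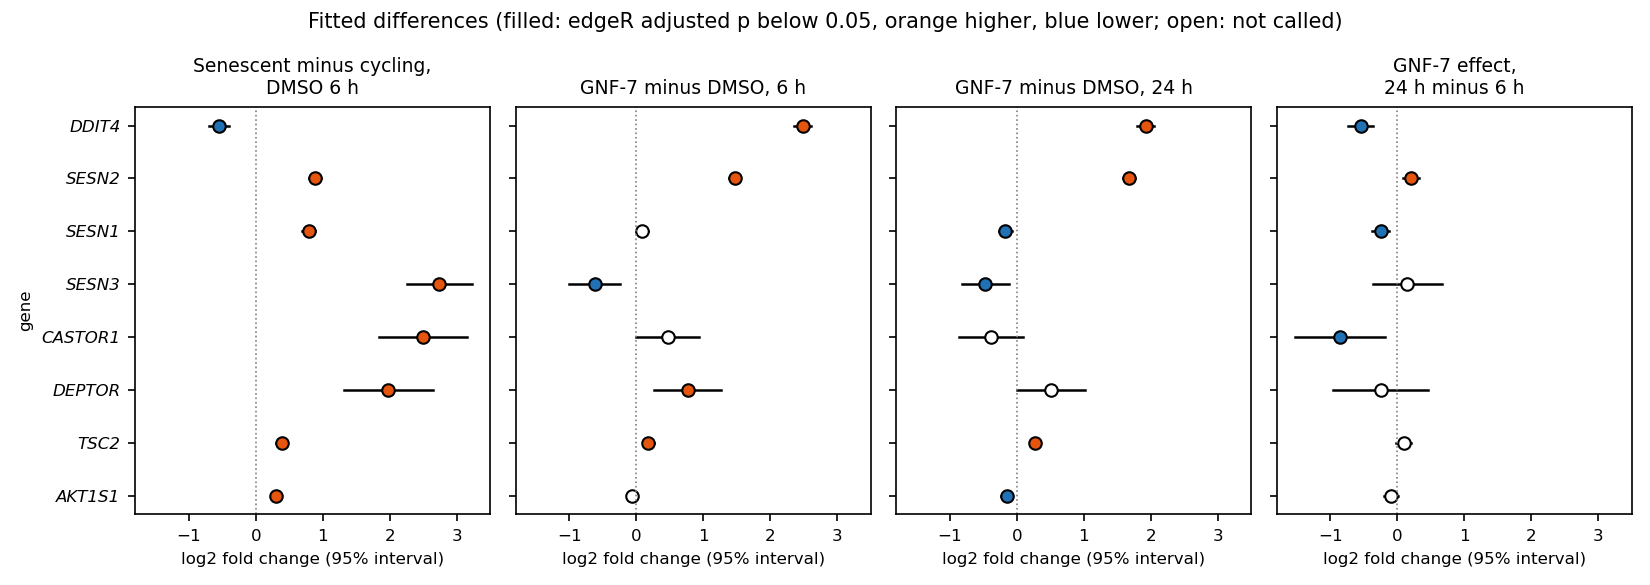
Fitted log2 fold change (horizontal axis, with 95% interval) of the 8 members tested in 4 comparisons, 1 panel each, filled where the edgeR adjusted p was under 0.05 (orange higher, blue lower). DDIT4 lies at -0.55 in senescence and at 2.48 and 1.92 with GNF-7, SESN2 is right of 0 in every panel, and SESN3 is at 2.73 in senescence and left of 0 with GNF-7. The senescence points of CASTOR1 and DEPTOR are a description only.

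Time in DMSO was compared within senescent cells (24 h against 6 h). AKT1S1 was the 1 member called (0.13, SE 0.038, edgeR adjusted p 0.00897) of 8 tested, beside 18.5% of all genes called (9.26% higher and 9.29% lower). The libraries of both groups did not overlap for 6 of 8 members and for 32.9% of all genes. SESN3 gave 0.44 (edgeR adjusted p 0.0758), DDIT4 0.18 (0.084) and SESN2 -0.10 (0.117), by the same test. Of all calls 49.9% were higher, a share that total-count scaling moved to 12.5%. Total counts lowered every member's value by 0.11, after which AKT1S1 (0.019, edgeR adjusted p 0.779) was not called and SESN2 (-0.206) and TSC2 (-0.165) were. Without a filter AKT1S1 was not called either (0.118, edgeR adjusted p 0.0554). The interaction between agent and time was called for 4 of 8 members, beside 30.8% of all genes. It was positive for SESN2 (12.8% of all genes were called higher) and negative for DDIT4, SESN1 and CASTOR1 (18.0% lower).

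Placed in order of mean CPM, the 5 groups give each member 4 pairs of neighbours, and 15 of the 32 pairs were called by the edgeR test. Of these 15, the steps of CASTOR1 and DEPTOR to cycling cells are a description only. A pair that was not called is not thereby shown to be equal. SESN1 ran from GNF-7 6 h over DMSO 24 h, DMSO 6 h and GNF-7 24 h to cycling cells, and of these steps the last alone was called. CASTOR1 (GNF-7 6 h, DMSO 24 h, GNF-7 24 h, DMSO 6 h, cycling) and DEPTOR (GNF-7 6 h, GNF-7 24 h, DMSO 24 h, DMSO 6 h, cycling) had no called step among the senescent groups, with cycling cells lowest. SESN2 ran from GNF-7 24 h over GNF-7 6 h, DMSO 6 h and DMSO 24 h to cycling cells, with all steps called except that between the DMSO groups (0.10, interval 0.0099 to 0.18, edgeR adjusted p 0.117). SESN3 was highest in DMSO 24 h, followed by DMSO 6 h, GNF-7 24 h, GNF-7 6 h and cycling cells, and its last 2 steps were called. TSC2 ran from GNF-7 24 h over GNF-7 6 h, DMSO 6 h and DMSO 24 h to cycling cells, where the steps between both GNF-7 groups and between both DMSO groups were not called. AKT1S1 was highest in DMSO 24 h, with a called step to DMSO 6 h, and lowest in cycling cells, with a called step from GNF-7 6 h, while the steps over GNF-7 24 h between them were not called. The background of called genes in the pairs that involve cycling cells was 75.7% for GNF-7 6 h, 70.7% for DMSO 24 h and 80.3% for GNF-7 24 h. It was 47.8% between the GNF-7 groups, 41.7% between DMSO 24 h and GNF-7 6 h and 61.6% between GNF-7 24 h and DMSO 6 h.

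Per kilobase of principal transcript, AKT1S1 (40.0 CPM per kb) and TSC2 (21.7) were the highest members in cycling cells, followed by SESN2 (13.3), SESN1 (12.8) and DDIT4 (11.5). With GNF-7 at 6 h SESN2 was highest at 67.7 CPM per kb, ahead of AKT1S1 (47.5) and DDIT4 (43.8), while TSC2 stood at 32.2 and SESN1 at 23.5. CASTOR1, DEPTOR and SESN3 stayed at or below 1.72 CPM per kb in every group. The length of TSC2 depends on the annotation, with 6164 bases in the principal transcript and 19626 over all annotated exons, so its place in this order is uncertain. With all annotated exons DDIT4 (9.75 CPM per kb) also stood above SESN1 (8.79) in cycling cells, and above AKT1S1 with GNF-7 at 6 h (37.2 and 30.2), so these places depend on the length used as well.

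Genes with the most similar level pattern were named by the Pearson correlation of log2 CPM over the 15 libraries, among 11070 genes with a symbol and at least 5 CPM. The libraries fall into 5 groups of 3, so r describes the likeness of group levels, and no p is given. For DDIT4 these were HERPUD1 (r = 0.987), SMG6 (0.984) and ADM2 (0.980), and for SESN2 DDIT3 (0.996), DLGAP1-AS2 (0.992) and ERN1 (0.991). For SESN1 they were CDKN1A (0.991), H2BC4 (0.990) and SPOCK1 (0.988), and for SESN3 STX3 (0.982), PPP6R2 (0.974) and APOL1 (0.973). For CASTOR1 they were KLHDC7A (0.964), H2BC11 (0.964) and CSMD3 (0.958), and for DEPTOR they included FAM13C (0.950) and SCAMP1-AS1 (0.950). For TSC2 they were TRIM66 (0.985), PLEKHM2 (0.985) and SAT1 (0.982), and for AKT1S1 PINK1 (0.991), CA11 (0.984) and ALDH3B1 (0.977). Between members r was 0.867 for DDIT4 and SESN2, 0.957 for SESN1 and CASTOR1, 0.946 for SESN3 and AKT1S1, 0.921 for SESN2 and TSC2 and 0.020 for DDIT4 and SESN3.

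Readouts of the factors known to act on these genes were counted from lists of 10 genes, or 6 for the glucocorticoid receptor. The lists are not fully separate, since IRS2 and PIK3IP1 are in both the FOXO and the growth factor list and GADD45A, a FOXO readout here, is also a known p53 target. ATF4 readouts, which include the amino acid genes ASNS, PSAT1 and PHGDH, were 3 higher and 7 lower in senescence (median log2 fold change -0.83), and 10 of 10 higher with GNF-7 at 6 h (2.14) and at 24 h (3.01). PSAT1, a serine synthesis enzyme, was at 233 CPM in cycling cells and at 59.2 and 317 CPM in senescent cells in DMSO and GNF-7 at 6 h. TRIB3, a pseudokinase, went from 37.9 to 265 CPM at 6 h (2.80, edgeR adjusted p 1.27e-51). DDIT4 had the same order of these 3 groups. SESN2 was higher in senescent than in cycling cells, as were 3 of the 10 readouts. Among these was DDIT3, at 10.3 CPM in cycling cells, and 23.4 and 154 CPM in DMSO and GNF-7 at 6 h. P53 readouts were 10 of 10 higher in senescence (median 1.10), where 35.6% of all genes were called higher. SESN1 and SESN2 were higher there too, but so were SESN3, TSC2 and AKT1S1. With GNF-7 at 6 h 7 p53 readouts were higher and 0 lower (0.15). At 24 h 4 were higher and 2 lower (0.038), or 1 lower with total counts. CDKN1A, the p53-induced inhibitor of the cell cycle, rose from 186 to 501 CPM in senescence (1.43, edgeR adjusted p 1.14e-42), had a difference of 0.047 with GNF-7 at 6 h (edgeR adjusted p 0.283) and fell by 0.26 at 24 h (edgeR adjusted p 1.31e-09). FOXO readouts were 8 higher and 2 lower in senescence (0.78; 1 lower with total counts), 6 higher and 3 lower with GNF-7 at 6 h (0.38) and 5 higher and 4 lower at 24 h (0.14). TXNIP rose by 1.73 in senescence and 1.14 with GNF-7 at 6 h. SESN3 fell at 6 h, as did the 3 readouts called lower. Hypoxia readouts were 4 higher and 2 lower in senescence (0.20; 0 lower with total counts and 1 without a filter), 3 higher and 3 lower with GNF-7 at 6 h (-0.0016) and 2 higher and 5 lower at 24 h (-0.21). VEGFA, the angiogenic growth factor in that list, rose in all 3 comparisons (1.42, 0.41 and 0.91), unlike the 5 of 10 readouts that fell at 24 h. Of 6 glucocorticoid receptor readouts 5 were tested, with 3 higher and 1 lower in senescence (0.37), 4 higher and 0 lower with GNF-7 at 6 h (1.28) and 3 higher and 1 lower at 24 h (0.95). TSC22D3, known as GILZ, was at 15.1 CPM in DMSO and 73.1 CPM in GNF-7 at 6 h (2.27, edgeR adjusted p 1.66e-37), and FKBP5 at 21.5 and 20.2 CPM (-0.094, edgeR adjusted p 0.31). The medians over all genes tested were 0.062, 0.0073 and 0.038 in the 3 comparisons. Whether any of these factors acts on the members in these cells was not tested.

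The other genes of the pathway were counted in the same way. Over all genes tested, 35.6% were called higher and 34.4% lower in senescence. With GNF-7 the shares were 17.9% higher and 21.4% lower at 6 h, and 29.3% and 29.7% at 24 h. The list counts above and in the following paragraphs are to be read beside these shares. No list was tested as a set, and a count near these shares is no result about its list. The list of 8 GATOR1 and KICSTOR genes, which restrain the Rag GTPases, also holds BMT2, which is in neither complex. Of the 8, 3 were higher and 2 lower in senescence (1 lower with total counts or without a filter), with BMT2 (0.35) among those higher. With GNF-7 2 were higher and 0 lower at 6 h, and 2 higher and 1 lower (BMT2, -0.38) at 24 h. NPRL3 of GATOR1 fell by 0.53 in senescence and rose by 0.23 with GNF-7 at 6 h. Of the 5 GATOR2 genes, the complex that sestrins and CASTOR1 bind, 4 were lower and 1 higher in senescence (median -0.47), 1 was lower with GNF-7 at 6 h, and 2 were higher and 2 lower at 24 h. SEH1L fell from 96.9 to 35.5 CPM in senescence (-1.45, edgeR adjusted p 4.67e-33), and MIOS from 32.8 to 20.4 CPM (-0.69, edgeR adjusted p 1.94e-13). SEH1L is also a nucleoporin. Of the 13 Rag, Ragulator and lysosomal partner genes 9 were higher and 0 lower in senescence (median 0.26), with 3 higher and 2 lower for GNF-7 at 6 h and 5 higher and 2 lower at 24 h. RRAGC, a Rag GTPase, was at 18.2 CPM in cycling cells, 30.9 and 43.5 CPM in senescent cells in DMSO and GNF-7 at 6 h, and 32.3 and 61.2 CPM at 24 h. It was called higher in each comparison (0.77, 0.49 and 0.92), as was FLCN, which acts on the Rags (0.89, 0.40 and 0.63).

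A list of 4 genes held the TSC2 partners TSC1 and TBC1D7 and the GTPases RHEB, the target of TSC2, and RHEBL1. In senescence the 2 partners were higher and the 2 GTPases lower. With GNF-7 1 was higher at 6 h (RHEBL1, 0.84), and 4 of 4 were higher at 24 h (2 without a filter). These 4 thus mix partners of the brake with its target. RHEBL1 had the largest value at 24 h (1.65), at a low level (0.965 CPM in DMSO and 3.04 CPM in GNF-7). TSC1, the partner of TSC2, rose by 0.43 in senescence (edgeR adjusted p 2.02e-10), close to the 0.39 of TSC2, and by 0.13 with GNF-7 at 24 h (edgeR adjusted p 0.0252). RHEB fell from 124 to 74.2 CPM in senescence (-0.74, edgeR adjusted p 5.95e-20). The list of 9 mTORC1 and mTORC2 genes also holds TTI1 and TELO2, which are not subunits of either complex. Of the 9, 1 was higher and 4 lower in senescence (3 higher with total counts). TTI1 (-1.02) and TELO2 (-0.92) were among those lower. With GNF-7 1 was higher and 5 lower at 6 h (3 lower with total counts), and 2 higher and 4 lower at 24 h. MTOR itself had a difference of 0.016 in senescence (edgeR adjusted p 0.761) and fell with GNF-7 from 119 to 95.7 CPM at 6 h (-0.32, edgeR adjusted p 2.17e-08) and from 104 to 76.6 CPM at 24 h (-0.44, edgeR adjusted p 4.99e-13). Of 13 substrates and effectors, 5 were higher and 8 lower in senescence (median -0.31), 4 higher and 3 lower with GNF-7 at 6 h (0.043), and 3 higher and 6 lower at 24 h (0.023). EIF4EBP1, the translation repressor that mTORC1 phosphorylates, fell from 181 to 62.9 CPM in senescence (-1.52, edgeR adjusted p 1.76e-39). With GNF-7 it rose to 115 CPM at 6 h (0.87, edgeR adjusted p 9.39e-26), below its level in cycling cells. At 24 h it rose from 75.3 to 178 CPM (1.24, edgeR adjusted p 1.32e-34), beside 181 CPM in cycling cells. GRB10, a substrate that dampens insulin signalling, rose by 1.54 and 1.69 with GNF-7 at 6 h and 24 h.

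In the growth factor arm, 10 genes that signal to the TSC complex, 6 were higher and 4 lower in senescence, 4 higher and 5 lower with GNF-7 at 6 h, and 3 higher and 5 lower at 24 h. IRS1, an insulin receptor substrate, rose by 0.98 in senescence and fell by 0.52 and 0.68 with GNF-7, while IRS2 rose by 0.73 and 1.38. Of 9 AMPK and LKB1 genes, which sense low energy and act on TSC2, 4 were higher and 4 lower in senescence, 3 higher and 1 lower with GNF-7 at 6 h, and 2 higher and 2 lower at 24 h. PRKAB2, an AMPK subunit, was at 23.0 CPM in cycling cells, 49.9 in senescent cells in DMSO at 6 h and 66.4 with GNF-7, and rose in all 3 comparisons (1.11, 0.41 and 0.40). PRKAB1, another AMPK subunit, also rose in all 3 (0.66, 0.41 and 0.38). PRKAA1 fell, at -0.75, -0.14 and -0.49 in the same comparisons. PRKAG2 fell by 1.06 in senescence and was not called with GNF-7 at 6 h (0.13) or 24 h (-0.11).

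**Figure D4:**
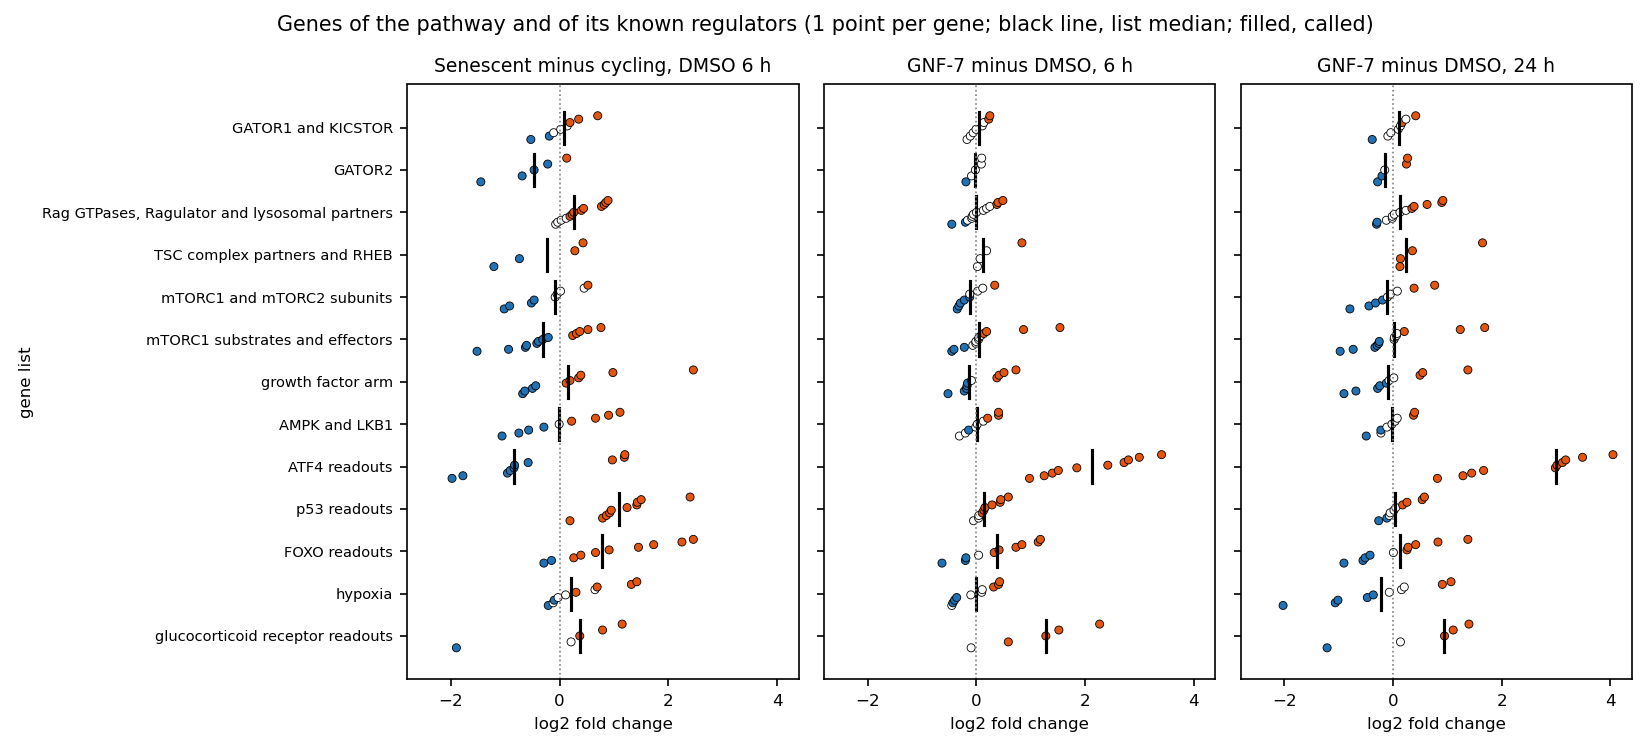
Log2 fold change (horizontal axis) of every tested gene in 13 lists (vertical axis), 1 panel per comparison, with 1 point per gene (filled where called, orange higher, blue lower) and a black line at the list's median. The ATF4 readouts have a median of -0.83 in senescence and of 2.14 and 3.01 with GNF-7, while the pathway's own lists have medians between -0.47 and 0.26 in all 3 panels.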

How the data were processed

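RNA libraries of HT-1080 cells were made with a stranded mRNA kit, per the labels' protocols. The authors deposited 1 table of raw counts per Ensembl gene, without normalization. The submitters' processing notes name bcl2fastq 2.20.0.422, STAR 2.7.9a, featureCounts 1.5.1 and GRCh38, with no role or order. The annotation release, the strand setting and the treatment of multiply mapped reads are not given in the sources used here, so values of genes that overlap others are uncertain. Columns were assigned to libraries through the library names that the labels give. Of 60673 lines, 3 belonging to 1 broken gene entry were left out. Of the 60670 identifiers kept, 42019 (69.26%) had a symbol in the name table. Coordinates, overlaps and lengths are from GENCODE release 29 on GRCh38, which held 96.34% of the identifiers.

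Counts were filtered with filterByExpr by group (18563 genes kept), scaled by TMM and fitted with edgeR's robust quasi-likelihood test (edgeR 4.0.16, R 4.3.3), with a term for each of the 5 groups and no replicate block. CPM values use the TMM-scaled library sizes, SD is over 3 libraries, and SE is that of the log2 fold change. Counting floors are at the 95% level and cover counting error only. The same replicate number did not pair libraries across groups: over 30 pairs the correlation of deviations ran from -0.0369 to 0.0579. Libraries of a group differed by more than sampling noise (chi-square per degree of freedom 2.94 to 11.6), so none was counted as a repeat. Alternatives were RLE size factors, total counts, mitochondrial genes left out, no filter, a filter at 5 CPM, DESeq2 1.42.0, limma 3.58.1 with voom, a replicate block, leaving out each library, and fitting the compared groups alone. On counts simulated for the GNF-7 6 h comparison (17942 genes tested, 200 changed 2-fold) 155 changed genes were recovered by edgeR (7 false calls), 150 by DESeq2 (10 false calls) and 152 by voom (8 false calls).

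The members, the 13 gene lists and the tests were chosen with earlier results of these data known. The naming rule took all members, TERF2, MKI67, CDKN1A and CASTOR2, the 2 genes of each list with the smallest p in each of 3 comparisons, and the 3 genes with at least 5 CPM most correlated with each member (log2 CPM, prior count 2). Not every gene it allows is printed, and some are not reported here.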

Additional observations from a re-analysis of the deposited data

Results flagged for a closer look

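For 4 of the 8 members tested the effect of GNF-7 at 24 h differed from that at 6 h by the interaction term of edgeR's quasi-likelihood test over all 15 libraries. That term was called for 30.8% of all genes tested, so the number of members called is no result about them. DDIT4 differed by -0.55 on the log2 scale (95% interval -0.74 to -0.37, edgeR adjusted p 1.33e-06), from a rise of 2.48 at 6 h to 1.92 at 24 h. SESN2 differed by 0.20 (interval 0.088 to 0.32, edgeR adjusted p 0.00432), from 1.47 to 1.67. SESN1 differed by -0.25 (interval -0.38 to -0.13, edgeR adjusted p 0.00116), from 0.086, which was not called, to -0.17. CASTOR1 differed by -0.85 (interval -1.52 to -0.18, edgeR adjusted p 0.0467), from 0.47 to -0.38, neither of which was called. With single libraries left out in turn, the DDIT4 value ranged from -0.594 to -0.506, that of SESN2 from 0.172 to 0.238 and that of SESN1 from -0.285 to -0.222, all called, while CASTOR1 ranged from -1.202 to -0.653 and was not called in 7 of 15 fits.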

How the results depend on the processing

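Over 945 values of 40 member results under the alternatives, 911 kept direction and side of the threshold, 19 lost a call, 10 gained one and 5 changed sign. The replicate block changed none of 40 member results, and its members called for GNF-7 at 6 h were again 4 higher and 1 lower. For 8 of 15 libraries the mean correlation of deviations with libraries of other groups was highest for those of the same number. In DMSO at 24 h against 6 h, total counts gave 627 genes higher and 4392 lower in place of 1719 and 1724, took the all-gene median from 0.0088 to -0.10 (in senescence from 0.062 to 0.19), called 0 members higher and 2 lower, and turned SESN1 (-0.029) and DEPTOR (-0.049), neither called. In the same comparison, members called higher were 0 without a filter and 2 with voom, with only the groups compared and with the filter at 5 CPM, in place of 1. That filter left SESN3, CASTOR1 and DEPTOR out of the test. In senescence 4 members were then called higher, in place of 5 of the 6 that passed the main filter in cycling cells. In the main fit 35.6% of all genes were called higher there. For GNF-7 at 6 h 0 members were lower (in place of 1). At 24 h 0 were lower (3), since SESN3 was left out and SESN1 (-0.068) and AKT1S1 (-0.053) lost their calls, and for the interaction 2 were higher (1), as TSC2 gained a call (0.146). The filter shifted the members kept by 0.15 in senescence, 0.053 at 6 h and 0.10 at 24 h. Leaving out 1 library gave -0.137 to 0.188 for DEPTOR in DMSO at 24 h against 6 h and -0.070 to 0.275 for the interaction of SESN3, neither called. Counts of list genes moved by over 1.5 times in 22 of 130 cases with total counts and in 6 of 130 without a filter. For the other changes the cause was not tested. Depth limits SESN3, CASTOR1 and DEPTOR, with 7 to 26 counts per cycling library.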
